A study of Saccharomyces cerevisiae with 16 samples.

Results

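The 48 genes described here encode proteins of ribosome biogenesis, and they were taken by systematic name. The rule used no measured value, but the genes were chosen with earlier results of these data known. All 48 had a value in each of the 16 libraries, among 6844 genes, and all 48 passed the filter for testing (a mean of at least 1 TPM over the 16 libraries, TPM being the share of a library's transcripts that a gene holds, corrected for its length), which 6404 genes did. The RNA came from 4 prototrophic haploid strains of Saccharomyces cerevisiae descended from the laboratory strain DHY211: wild-type, atg18∆, fab1∆ and vph1∆, with 4 cultures of each. The 3 deletions were made with the NatMX drug resistance cassette, and every strain, the wild-type included, carried SAL1+ and HAP1+ together with CAT5(91M) and MIP1(661T), MKT1(30G) and RME1(INS-308A), and also TAO3(1493Q). Cells were grown at room temperature in SDC, a synthetic glucose medium with amino acids, and collected at an OD600 of 0.05, with 2 cultures on each of 2 days per strain. The labels do not say which replicate belongs to which day. Fab1 is the lipid kinase that makes the vacuolar signalling lipid PtdIns(3,5)P2, Atg18 is a regulator of the Fab1 complex, and Vph1 is a membrane subunit of the v-ATPase, the proton pump that acidifies the vacuole. The comparisons ask how the RNA of cells that lack each protein differs from that of the wild-type; a change in RNA per cell and a change in the share of cells that express a gene cannot be told apart in such bulk samples.

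Ribosome biogenesis begins in the nucleolus, where RNA polymerase I copies the ribosomal DNA into a long precursor RNA. Small nucleolar ribonucleoproteins (snoRNPs) modify that precursor: those with box C/D guide RNAs add methyl groups to the ribose and those with box H/ACA guide RNAs convert uridine to pseudouridine. The small-subunit processome, which includes the UTP-A and UTP-B complexes, assembles on the young transcript, and a separate series of factors builds the large subunit. In budding yeast most genes of these factors form one co-regulated group, the Ribi regulon, which responds to nutrient signals through TORC1 and protein kinase A. Their promoters are known for a pair of elements, PAC, bound by the repressors Dot6 and Tod6, and RRPE, bound by Stb3.

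The 48 genes fall into 6 groups by role. The box C/D proteins were NOP1, NOP56, NOP58 and RRP9, and the box H/ACA proteins CBF5, GAR1, NHP2 and NOP10. The UTP-A complex was represented by UTP4, UTP5, UTP8, UTP9, UTP10 and UTP15, and UTP-B by UTP6, UTP13, UTP18 and UTP21. The other small-subunit factors were NOP9, NOP14, NSR1, RRP5, RRP12, UTP7, UTP11, UTP14, UTP20, UTP22, UTP23, UTP25 and UTP30. The large-subunit factors were BRX1, EBP2, ERB1, MAK16, NOP2, NOP4, NOP7, NOP8, NOP12, NOP13, NOP15, NOP16, NOP53, NUG1, RRP8, SSF1 and YTM1.

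The upstream sequences of 7 of the genes are shown because their RNA levels bracket what follows: in the fit without wild-type replicate 3, NOP58, RRP5, UTP20, NSR1 and GAR1 were called lower in fab1∆ than in atg18∆, and NHP2 and NOP10 were not. With all 16 libraries none of the 7 was called, and with a trend of gene length removed as well as that library all 7 were. Each stretch runs 5′ to 3′ towards the gene on its coding strand and covers the bases from 210 to 91 before the start codon, in the reference strain S288C, assembly R64 (the build that sacCer3 names). Capitals mark exact matches on either strand to PAC, searched as GATGAG and its reverse complement, and to RRPE, searched as AAAATTTT, which is its own reverse complement.
NOP58 (chrXV:898451-898570, minus strand): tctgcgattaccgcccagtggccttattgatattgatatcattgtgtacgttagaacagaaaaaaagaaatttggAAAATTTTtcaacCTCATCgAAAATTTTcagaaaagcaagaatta
RRP5 (chrXIII:731214-731333, minus strand): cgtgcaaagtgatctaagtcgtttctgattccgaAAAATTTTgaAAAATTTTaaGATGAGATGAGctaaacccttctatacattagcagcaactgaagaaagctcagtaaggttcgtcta
UTP20 (chrII:227426-227545, plus strand): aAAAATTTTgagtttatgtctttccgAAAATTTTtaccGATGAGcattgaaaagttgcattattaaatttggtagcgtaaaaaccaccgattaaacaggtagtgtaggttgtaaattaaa
NSR1 (chrVII:807747-807866, minus strand): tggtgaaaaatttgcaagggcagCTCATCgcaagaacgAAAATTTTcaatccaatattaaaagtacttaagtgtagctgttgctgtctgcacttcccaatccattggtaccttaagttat
GAR1 (chrVIII:283389-283508, minus strand): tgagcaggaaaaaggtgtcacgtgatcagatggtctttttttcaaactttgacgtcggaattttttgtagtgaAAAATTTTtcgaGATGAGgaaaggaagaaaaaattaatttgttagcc
NHP2 (chrIV:87302-87421, plus strand): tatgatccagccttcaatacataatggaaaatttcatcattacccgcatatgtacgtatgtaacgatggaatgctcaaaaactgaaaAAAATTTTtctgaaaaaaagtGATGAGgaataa
NOP10 (chrVIII:241454-241573, plus strand): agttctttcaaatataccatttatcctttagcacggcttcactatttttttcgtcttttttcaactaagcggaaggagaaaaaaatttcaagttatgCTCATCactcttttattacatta

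In the 300 bases before the start codon, 43 of the 48 genes (89.6%) held PAC, 35 (72.9%) held RRPE and 32 (66.7%) held both, and 2, UTP22 and UTP30, held neither. Among all 5748 protein-coding genes tested, 19.0% held PAC, 9.74% RRPE and 4.65% both. The nearest match lay a median of 109 bases before the start codon for PAC and 129 for RRPE. NHP2 held both elements as NOP58 and RRP5 did, and NOP10 held PAC alone. A match describes the letters in this window and is not a measured binding site.

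**Figure D1:**
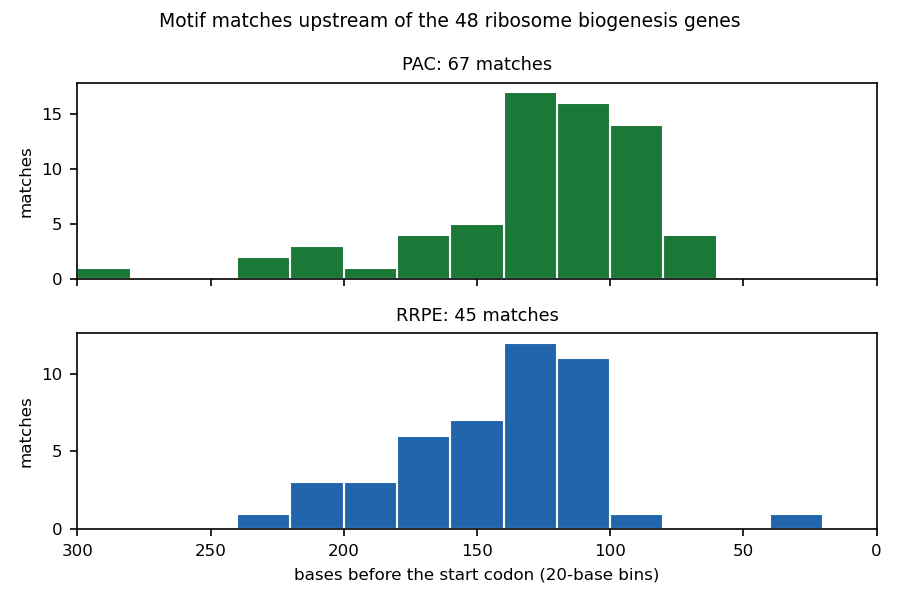
Number of matches to PAC (above) and RRPE (below) in 20-base bins of distance before the start codon, over the 48 genes. Of 67 PAC matches 61, and of 45 RRPE matches 40, lay between 60 and 200 bases before the start codon.

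The libraries were checked against their labels first. ATG18 was at 0 to 0.0106 TPM in the 4 atg18∆ libraries against 3.27 to 12.8 elsewhere, and VPH1 at 0 to 0.191 in vph1∆ against 42.3 to 118. FAB1 was at 1.28 to 1.58 TPM in fab1∆ against 1.77 to 3.55 elsewhere, lower without overlap but not at 0. How much of FAB1 was deleted is not given in the labels, so its level does not settle that label as ATG18 and VPH1 do theirs. The markers of haploid a cells summed to 12900 to 25200 TPM over 7 genes in every library and those of alpha cells to 8.45 to 23.4 over 4 genes, so all libraries had the RNA of a cells. Replicate 3 of the wild-type stood apart: its 10 most abundant genes held 31.2% of its TPM against 14.4% to 15.9% in the other 15 libraries, and its median gene lay 0.895 below the mean of those libraries on the log2 scale. It was below the other 3 wild-type libraries in 47 of the 48 ribosome biogenesis genes and above them in NOP10 alone. The calls of members in each comparison are therefore given with all 16 libraries, which is the fit chosen for the test, and without that library. The counts of calls by motif, and those of other pathway genes against atg18∆, are given only without it. The number of reads behind each TPM value is unknown.

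Levels on the TPM scale, which corrects for gene length, differed widely within and between the groups. The 4 box H/ACA proteins summed to a mean of 3190 ± 76.1 TPM in fab1∆ and 3300 ± 133 in atg18∆ (SD, n = 4 each), and the 4 box C/D proteins to 1070 ± 20.4 and 1320 ± 55.3. The 6 UTP-A genes together came to 152 ± 10.1 TPM in fab1∆ and 207 ± 31.7 in atg18∆, and the 4 UTP-B genes to 102 ± 5.08 and 133 ± 16.9. The 13 other small-subunit factors summed to 784 ± 14.2 TPM in fab1∆ and 950 ± 74.7 in atg18∆, and the 17 large-subunit factors to 1170 ± 45.6 and 1410 ± 152. NOP10 alone made up most of the box H/ACA sum, and RRP9 was the least abundant of the box C/D genes. Over all libraries the highest members were NOP10, NOP1 and GAR1 and the lowest UTP10, NOP8 and UTP20, with single values from 4.76 to 3700 TPM. Of the 48 genes, 11 had a mean of at least 100 TPM and 27 one under 50. Summed over the 48 genes, the level was 6371, 6432, 6643 and 6453 TPM in fab1∆, 6817, 7173, 7589 and 7695 in atg18∆, 6871, 7257, 7003 and 6953 in vph1∆, and 6851, 7046, 6358 and 7688 in the wild-type, in the order of the replicates. The fab1∆ sums lay below every other library except wild-type replicate 3. Replicates of fab1∆ were the closest to each other: the coefficient of variation of a gene had a median of 4.69%, against 7.82% in vph1∆, 11.8% in atg18∆ and 32.8% in the wild-type (11.8% without replicate 3).

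**Figure D2:**
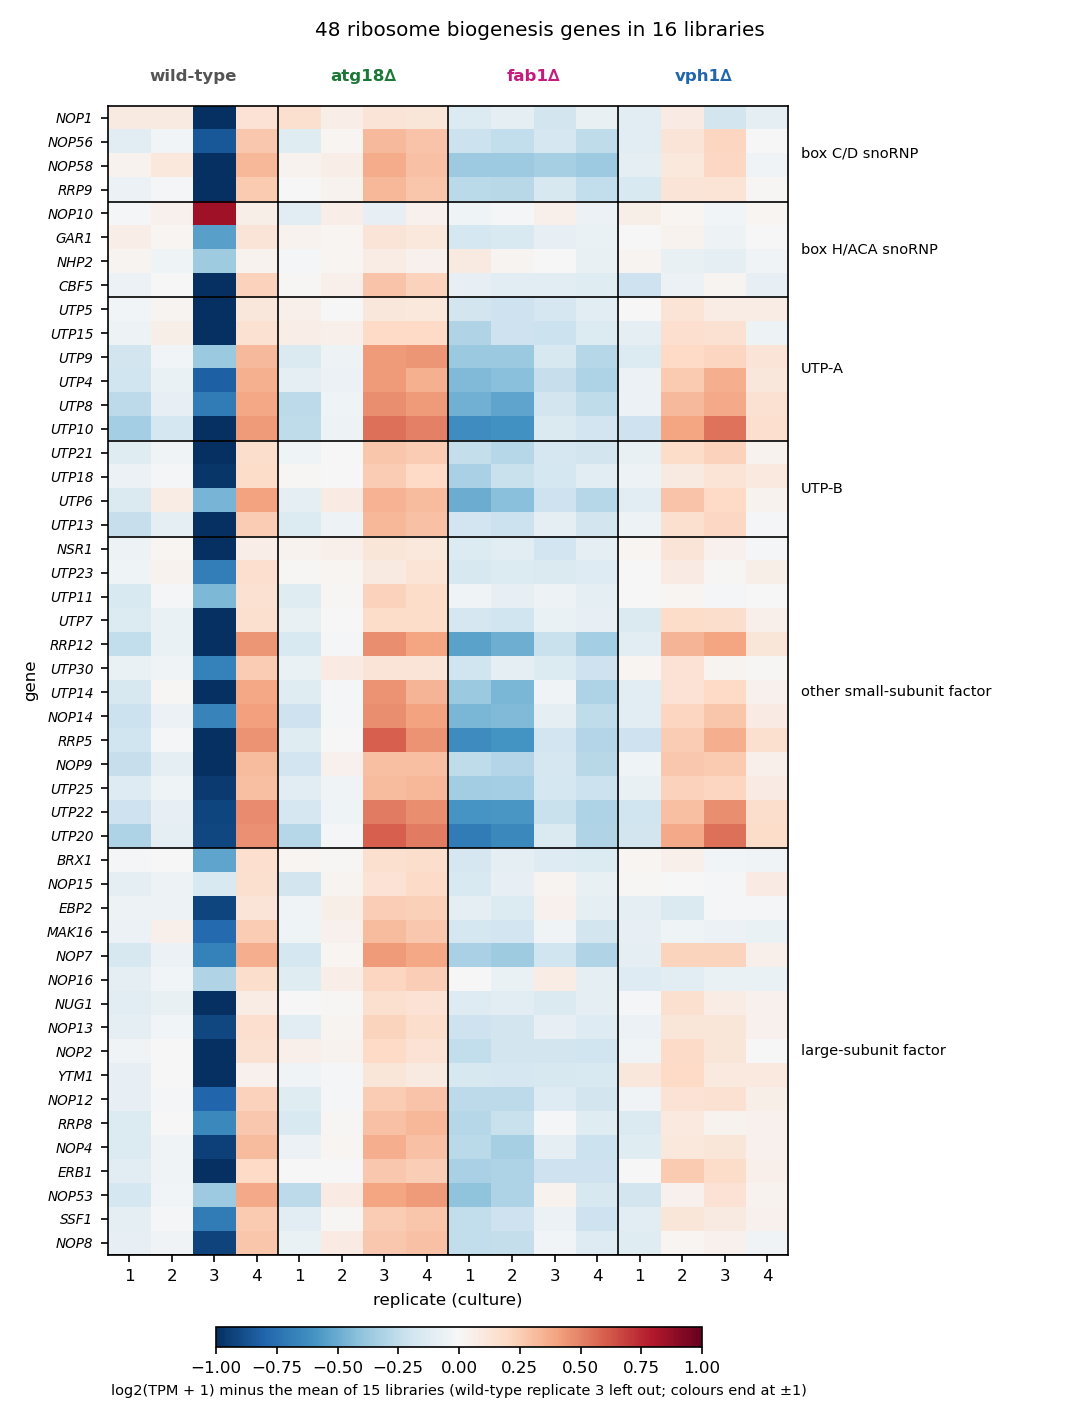
Level of each of the 48 genes (rows, grouped by role) in each of the 16 libraries (columns), as log2(TPM + 1) minus the gene's mean over 15 libraries, without wild-type replicate 3; blue is lower and red higher. The fab1∆ columns are blue in nearly every row (43 to 48 genes below the mean), wild-type replicate 3 is the darkest column, and wild-type replicate 4 and atg18∆ replicates 3 and 4 are red (0, 1 and 0 genes below the mean).

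With all 16 libraries, none of the 48 genes was called at an adjusted p under 0.05 in any of the 6 comparisons (limma on log2(TPM + 1), Benjamini-Hochberg adjustment over 6404 genes). For fab1∆ against the wild-type, where 22.9% of all genes were called higher and 0.609% lower, no member reached an unadjusted p under 0.05. For fab1∆ against atg18∆ (10.3% of all genes called higher, 0.593% lower), 12 members had an unadjusted p under 0.05, all of them lower, against 3.83% of all genes in that direction. For vph1∆ against fab1∆ (0.531% higher, 5.76% lower), 11 members did, all higher in vph1∆, against 4.01% of all genes. Against the wild-type, vph1∆ (4.42% higher, 0.453% lower) had 1 such member, YTM1, higher as were 22.0% of all genes, and atg18∆ (0.0312% higher, 0.0156% lower) none, and vph1∆ against atg18∆ (0.531% higher, 0.141% lower) had none. The median member stood 0.03 below the wild-type in fab1∆ on the log2 scale (-0.03, where the median of all genes was 0.25), and all 48 members lay below that median of all genes. In atg18∆ and vph1∆ the median member was 0.34 and 0.25 above the wild-type, beside 0.27 for all genes in each. These shifts of the median gene carry wild-type replicate 3: without it the medians of all genes were 0.05 in atg18∆, 0.07 in fab1∆ and 0.06 in vph1∆.

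Without wild-type replicate 3, 18 of the 48 ribosome biogenesis genes were called lower in fab1∆ than in the wild-type, none higher and 30 in neither direction, where the fit called 10.0% of all 6404 genes lower and 32.4% higher. The median member fell by 15.3%, a log2 fold change of -0.24 beside 0.07 for all genes, and 47 of 48 members were below 0. In 23 members all 4 fab1∆ libraries lay below all 3 remaining wild-type libraries, which was so for 14.3% of all genes. With wild-type replicate 3 kept, no member had fab1∆ wholly below the wild-type, against 1.17% of all genes. Of the 18 called genes, 3 were of the 4 box C/D proteins, 1 of the 4 box H/ACA proteins, 2 of the 6 UTP-A genes, 2 of the 4 UTP-B genes, 4 of the 13 other small-subunit factors and 6 of the 17 large-subunit factors.

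NOP58 (YOR310C), a core protein of the box C/D snoRNPs, had the most negative log2 fold change against the wild-type in this fit, whereas with all 16 libraries it was that of UTP6. It stood at 107, 107, 109 and 107 TPM in fab1∆, at 141, 148, 57.1 and 173 in the wild-type, at 141, 144, 178 and 169 in atg18∆ and at 129, 148, 159 and 134 in vph1∆. Every fab1∆ library was below every other library but wild-type replicate 3. Without that library the log2 fold change against the wild-type was -0.51 (SE 0.09, adjusted p = 0.000345), and with it -0.16 (SE 0.24, adjusted p = 0.67). NOP1 (YDL014W), the methyltransferase of the same particle, was at 776, 797, 751 and 809 TPM in fab1∆, 908, 906, 301 and 944 in the wild-type, 955, 896, 931 and 929 in atg18∆ and 794, 903, 750 and 799 in vph1∆. Its vph1∆ libraries overlapped those of fab1∆ and lay, as those did, below wild-type replicates 1, 2 and 4. NOP56, the partner of NOP58 in the particle, stood at 148, 145, 153 and 144 TPM in the fab1∆ libraries, all lower than the 159, 169 and 208 of wild-type replicates 1, 2 and 4, and did not pass the test (adjusted p = 0.066). RRP9, the box C/D protein particular to the U3 snoRNP, passed it at 33.8, 33.7, 36.6 and 34.4 TPM in fab1∆ against 39.3, 40.5 and 49.5 (log2 fold change -0.30, SE 0.10, adjusted p = 0.02).

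Of the box H/ACA proteins, 1 of 4 was called in this fit. GAR1 (YHR089C) was at 452, 459, 481 and 487 TPM in fab1∆ and at 534, 518, 351 and 559 in the wild-type, a log2 fold change of -0.19 without replicate 3 (SE 0.04, adjusted p = 0.00108). NHP2 (YDL208W) was at 512, 490, 479 and 457 TPM in fab1∆ and 490, 467, 375 and 494 in the wild-type, and the groups overlapped. NOP10 (YHR072W-A), the smallest protein of the particle and the most abundant RNA of the 48, was at 1990, 2030, 2130 and 1970 TPM in fab1∆, 2040, 2120, 3700 and 2140 in the wild-type, 1900, 2150, 1940 and 2120 in atg18∆ and 2140, 2080, 2020 and 2080 in vph1∆. Its 1 high value was wild-type replicate 3, and the other 15 libraries overlapped between all strains. CBF5, the pseudouridine synthase, reached at most 210 TPM in fab1∆ and at least 213 in wild-type replicates 1, 2 and 4, without overlap but not past the test (adjusted p = 0.103).

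**Figure D3:**
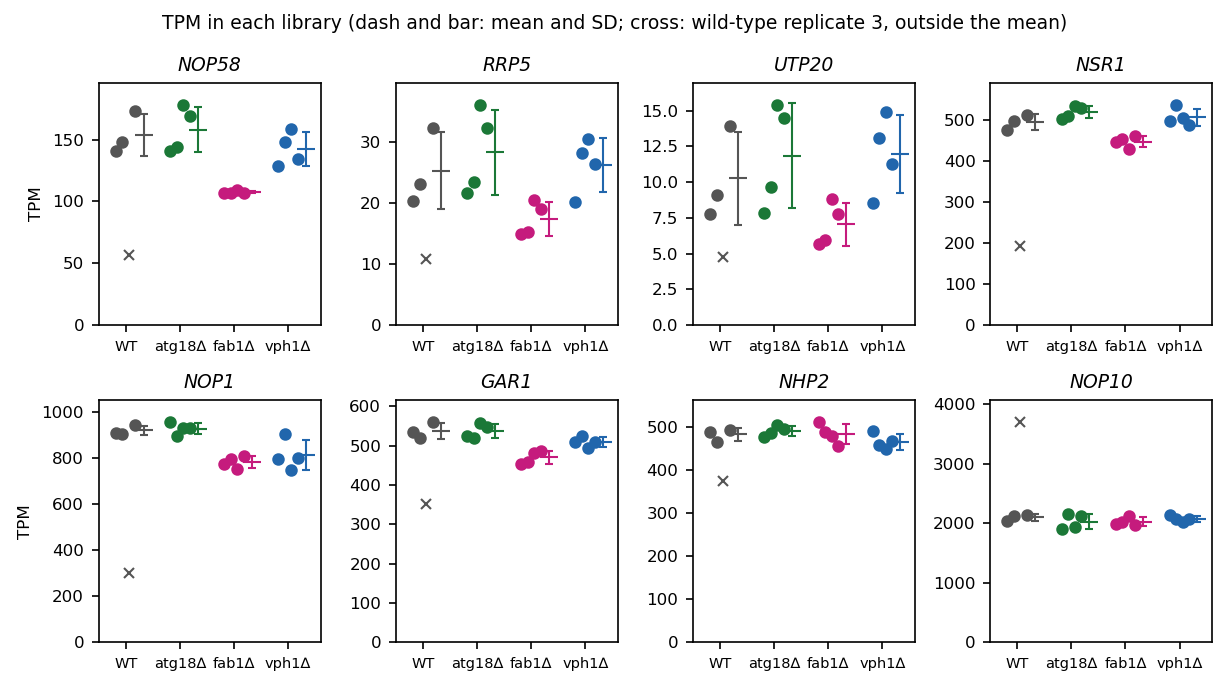
TPM (linear axes from 0) of 8 genes in each library: points are the 4 cultures of a strain in the order of their replicate numbers, the cross is wild-type replicate 3, and the dash with its bar is the mean and SD without that library. In NOP58, NSR1 and GAR1 the 4 fab1∆ points lie below all other points but the cross, whereas in NHP2 and NOP10 the strains overlap.

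Among the other small-subunit factors, NSR1 (YGR159C), a nucleolin-like protein of pre-rRNA processing, was at 446, 453, 430 and 461 TPM in fab1∆ and 475, 497, 193 and 513 in the wild-type. Leaving out the low wild-type library turned its log2 fold change from 0.19 (SE 0.22, adjusted p = 0.554) to -0.15 (SE 0.04, adjusted p = 0.00931). NUG1, a GTPase of the large subunit, which had the highest value of the 16-library fit at 0.21, likewise went to -0.08 and was not called in either. RRP5 (YMR229C), which is needed for both subunits, was at 14.9, 15.2, 20.5 and 19.0 TPM in fab1∆ and 20.4, 23.2, 10.8 and 32.4 in the wild-type. One fab1∆ library reached just above the lowest of the 3 other wild-type libraries, and the fold change of -0.50 (SE 0.19, adjusted p = 0.0495) was close to the threshold. The UTP-B protein UTP6 was called at -0.46 (SE 0.14, adjusted p = 0.0124), and its value with all libraries was -0.32 (adjusted p = 0.176). At the other end of the called genes were BRX1 (-0.18) and YTM1 (-0.14), both of the large subunit. YTM1 was at 58.9, 58.5, 58.8 and 59.1 TPM in fab1∆ and 62.1, 65.6 and 67.7 in the wild-type without replicate 3. Its partners NOP7 and ERB1, with which it forms a complex of the large-subunit precursor, had values of -0.34 (adjusted p = 0.0678) and -0.28 (adjusted p = 0.02).

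More members were called against atg18∆. Without wild-type replicate 3, which enters this comparison only through the shared estimate of the spread, 40 of 48 members were called lower in fab1∆ than in atg18∆ and none higher, where 17.0% of all genes were called lower and 30.8% higher. A fit of these 8 libraries alone, which used no wild-type library, called 41 lower, where it called 18.9% of all genes lower. The median member was 19.3% lower (log2 fold change -0.31, beside 0.02 for all genes), and 28 members did not overlap between the strains, which was so for 16.9% of all genes in that direction. All 4 box C/D proteins and all 6 UTP-A genes were called, with 3 of 4 UTP-B genes, 11 of 13 other small-subunit factors, 14 of 17 large-subunit factors and 2 of 4 box H/ACA proteins. The most negative log2 fold changes were those of RRP5 (-0.66, SE 0.18, adjusted p = 0.00793), UTP20 (-0.65, SE 0.22, adjusted p = 0.0254), UTP22 (-0.62) and UTP10 (-0.58). UTP20 (YBL004W), a large helical scaffold protein of the processome, was at 5.66, 5.93, 8.82 and 7.78 TPM in fab1∆ and 7.87, 9.68, 15.4 and 14.5 in atg18∆. In both strains replicates 3 and 4 were the higher pair, and the pairs of the same number did not overlap. The smallest called falls were those of YTM1, NUG1 and EBP2 (each -0.20) and GAR1 (-0.19, SE 0.04, adjusted p = 0.000574). NSR1 stood at -0.21, NOP1 at -0.24, CBF5 at -0.25, NOP56 at -0.35 and RRP9 at -0.40, all called, and NOP58 at -0.55 (SE 0.08, adjusted p = 9.9e-05). The 8 genes not called were NHP2 (-0.02, adjusted p = 0.66), NOP10 (0.00443, adjusted p = 0.936), NOP15, NOP16, NOP53, UTP7, UTP11 and UTP13, the last 6 at adjusted p from 0.0545 to 0.2.

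**Figure D4:**
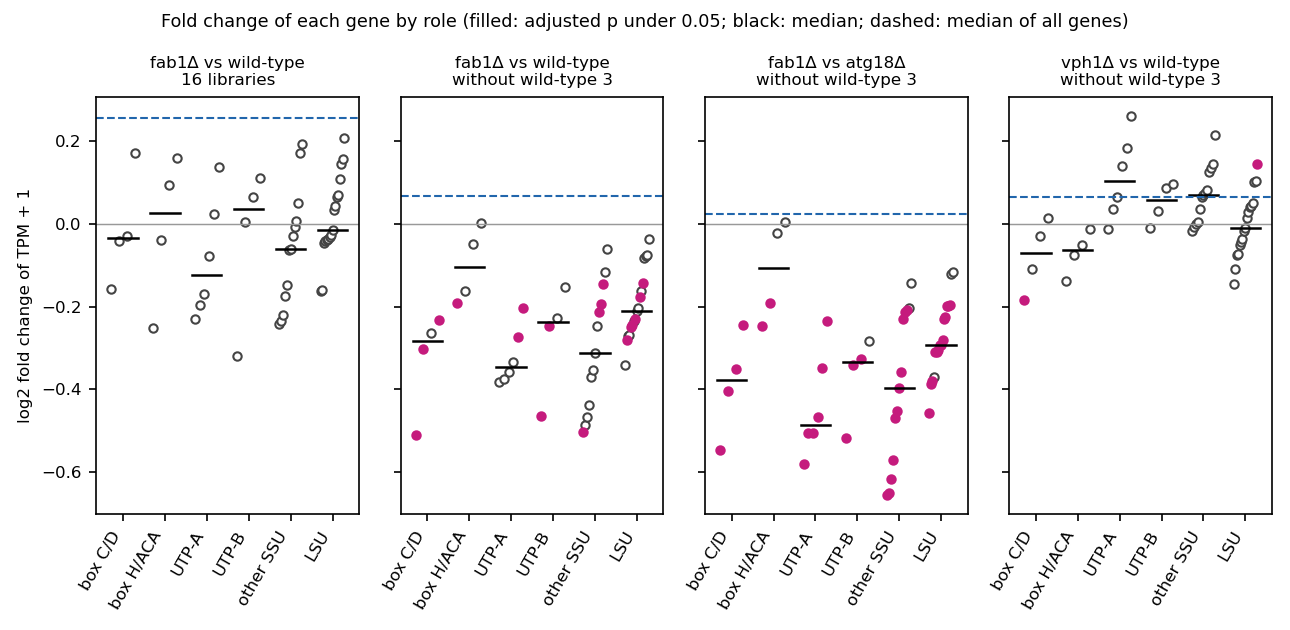
Log2 fold change of TPM + 1 of each gene, by role, in 4 fits; filled points passed an adjusted p of 0.05, black bars are medians of a role and the dashed line is the median of all genes (SSU and LSU stand for small and large subunit). In fab1∆ against the wild-type no point is filled with 16 libraries and 18 are filled below 0 without wild-type replicate 3, 40 are filled below 0 against atg18∆, and vph1∆ has 1 filled point on each side.

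The strains vph1∆ and atg18∆ had few called members. For vph1∆ against the wild-type without replicate 3, 1 member was called higher (11.6% of all genes) and 1 lower (3.12%): YTM1, at 71.4, 75.8, 70.5 and 70.6 TPM against 62.1, 65.6 and 67.7 (log2 fold change 0.14, SE 0.05, adjusted p = 0.0497), and NOP1 (-0.18, SE 0.05, adjusted p = 0.0228). NOP1 was also the 1 member called against atg18∆ (-0.20, SE 0.05, adjusted p = 0.0117), where 3.2% of all genes were called lower and 8.87% higher. The median member was 0.02 above the wild-type and 0.05 below atg18∆ on the log2 scale (0.02 and -0.05). Beside these stood 0.06 and 0.01 for all genes, and 31 and 41 of the 48 members lay below those medians. With all libraries the extremes against the wild-type were NOP10 (-0.22), NOP16 (-0.03), UTP20 (0.45) and UTP10 (0.54), and those against atg18∆ were CBF5 (-0.22), MAK16 (-0.21), UTP8 (0.05) and YTM1 (0.09), none of them called. In atg18∆ against the wild-type no member was called without replicate 3 either, with none at an unadjusted p under 0.05, and 0.0781% of all genes were called higher and 0.0156% lower. The extremes were NOP10 (-0.05, and -0.26 with all libraries), GAR1 (0.00011), UTP20 (0.18) and UTP10 (0.22, and 0.50 with all libraries), while with all libraries NOP15 stood at 0.08 and ERB1 at 0.45.

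Compared directly, vph1∆ stood above fab1∆ in most members. Without wild-type replicate 3, 31 of 48 were called higher in vph1∆ and none lower, where 15.3% of all genes were called higher and 25.7% lower, and a fit of the 8 libraries alone called 35, where it called 18.0% of all genes higher. The libraries did not overlap in 29 members, against 13.4% of all genes. The highest called values were those of UTP20 (0.68, SE 0.22, adjusted p = 0.0239), UTP10 (0.62), UTP22 (0.61) and RRP12 (0.58), and the lowest those of NSR1 and UTP23 (each 0.18), BRX1 (0.13) and GAR1 (0.12). NHP2 (-0.05) and NOP16 (-0.07), a large-subunit factor, were at the other end and not called. The comparisons share the fab1∆ libraries, so the calls against the wild-type, atg18∆ and vph1∆ are not independent of each other.

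The size of the difference went with gene length, but only weakly against the wild-type with all 16 libraries. The 48 genes range from 177 to 7482 bp of coding sequence. Over them, Spearman's rho between length and the log2 fold change of fab1∆ against atg18∆ was -0.794. For fab1∆ against the wild-type it was -0.70 without replicate 3 and -0.262 with all 16 libraries. A relation with length was not particular to fab1∆: without replicate 3, rho was 0.762 for atg18∆ and 0.70 for vph1∆ against the wild-type. In fab1∆ against atg18∆ the shortest gene, NOP10, was at 0.00443 and the longest, UTP20, at -0.65. The genes share the same libraries, so this is a description across genes. A tilt with length was also seen over all genes: over 5769 genes with a length, rho between length and a gene's deviation from its mean was -0.526, -0.521, -0.361 and -0.409 in the fab1∆ libraries, and -0.384 in wild-type replicate 3 and -0.382 in vph1∆ replicate 1. It was 0.497 in wild-type replicate 4, 0.566 and 0.472 in atg18∆ replicates 3 and 4 and 0.426, 0.586 and 0.225 in vph1∆ replicates 2, 3 and 4. In wild-type replicates 1 and 2 it was -0.195 and 0.00765, and in atg18∆ replicates 1 and 2 -0.0989 and 0.0222. When the trend with length over all genes was removed from each library, the 48 genes lost their relation with length in fab1∆ against atg18∆ (rho 0.126 without wild-type replicate 3) and stayed lower: 48 of 48 were called, with log2 fold changes from -0.57 to -0.16, where 33.4% of the 5769 genes were called lower. Against the wild-type this called 46 of 48, where 29.9% of all genes were called lower, and with all 16 libraries 35, where 20.0% were. NHP2, CBF5, GAR1 and NOP10, the box H/ACA genes, were then at -0.27, -0.27, -0.38 and -0.39 against atg18∆, all called, beside a median of -0.33 over the 48 genes. NOP10 moved the most under it, from 0.00443 to -0.39. What part the length trend has in the fold changes was not tested further.

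**Figure D5:**
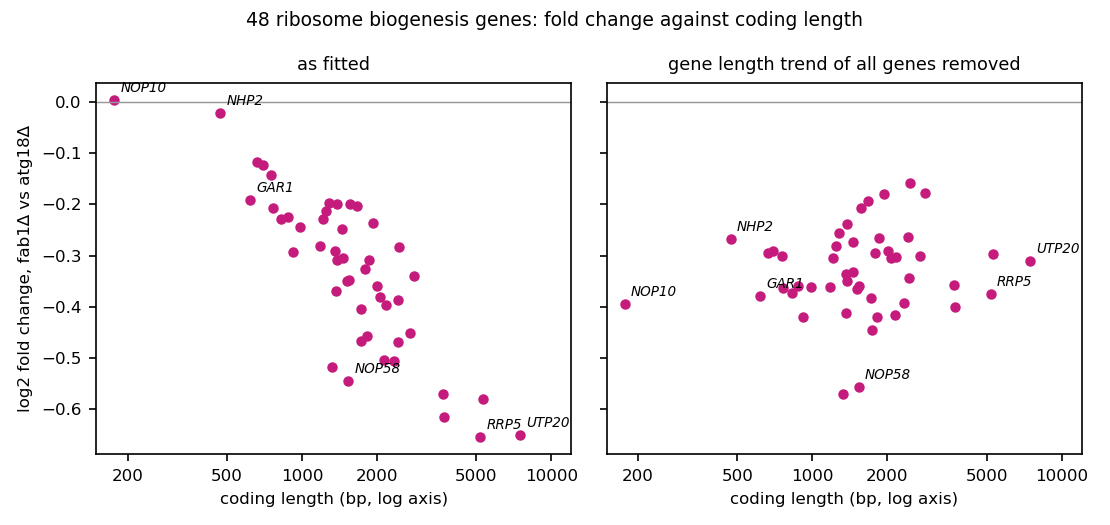
Log2 fold change of fab1∆ against atg18∆ (without wild-type replicate 3) of the 48 genes against their coding length in bp on a log axis, as fitted (left) and after removal of the trend with length of all genes in each library (right). The points fall from NOP10 at 177 bp to UTP20 at 7482 bp on the left (rho -0.794) and show no such slope on the right (rho 0.126), where all 48 lie below 0.

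Replicate numbers also mattered. The members were higher in the mean of replicates 3 and 4 than of 1 and 2 in 48 of 48 cases in atg18∆, 41 in fab1∆ and 35 in vph1∆, and higher in wild-type replicate 4 than in replicates 1 and 2 in 48. Within replicates 1 and 2 alone, 45 of 48 members were lower in fab1∆ than in the wild-type, with a median of -0.20, and 47 were lower than in atg18∆ (median -0.23), as they were within replicates 3 and 4 (47, median -0.40). Beside these medians stood 0.0936, 0.0655 and -0.0115 for all genes, in the same order. Against wild-type replicate 4 alone, the mean of fab1∆ replicates 3 and 4 was lower in 48 of 48 members (median -0.38). With wild-type replicate 3 kept beside replicate 4, 38 members were higher in fab1∆ and 10 lower (median 0.125, beside 0.432 for all genes). In vph1∆, 40 members were higher than the wild-type in replicates 1 and 2 (median 0.0942, beside 0.095 for all genes). In replicates 3 and 4, 47 were lower than wild-type replicate 4 alone. With wild-type replicate 3 kept, 46 were higher there and 2 lower (median 0.457, beside 0.46 for all genes), so the sign depended on that library. General stress genes, among them CTT1 and GPH1, moved with the fab1∆ strain. The 16 genes summed to 3200 to 3430 TPM in fab1∆, 284 to 544 in the wild-type, 512 to 964 in atg18∆ and 424 to 534 in vph1∆. In fab1∆, 15 of 16 were called higher than in the wild-type with all 16 libraries, where 22.9% of all genes were. The count was also 15 without wild-type replicate 3, where 32.4% of all genes were called higher. The part of the stress genes in the levels of the ribosome biogenesis genes was not tested.

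Other genes of the pathway, from lists of known function, were counted in the same fits without wild-type replicate 3, which called 10.0% of all genes lower and 32.4% higher in fab1∆ than in the wild-type, and 17.0% lower and 30.8% higher than in atg18∆. Of 16 genes of RNA polymerase I and its factors, 6 were called lower in fab1∆ than in the wild-type, among them RPA43 (-0.23) and RRN9 (-0.27), and 1 higher, RPA14 (0.32). Of 43 other small-subunit assembly factors 13 were called lower and none higher, KRR1 (-0.24), FAF1 (-0.27) and DBP8 (-0.16) having the smallest p. Of 52 other large-subunit factors 16 were called lower, with NOG2 (-0.27) and NMD3 (-0.35), an export adaptor of the large subunit, and 1 higher, BUD20 (0.28). Of 138 cytosolic ribosomal protein genes 97 were called lower and 3 higher, with a median of -0.14. Against atg18∆ the counts lower were 9 of 16, 30 of 43, 38 of 52 and 92 of 138. With all 16 libraries, fab1∆ against the wild-type gave no lower call in the first 3 lists and 15 in the ribosomal protein genes. Among 16 regulators, without wild-type replicate 3, CRF1, a corepressor of ribosomal protein genes, was called higher in fab1∆ than in the wild-type (0.71, SE 0.08, adjusted p = 7.23e-06). The promoter-binding factors ABF1 (-0.53, adjusted p = 0.0017) and RAP1 (-0.48, adjusted p = 0.00353) were called lower in that fit. With all 16 libraries CRF1 was called higher in fab1∆ (0.91, adjusted p = 0.000494) and no regulator was called lower there. The rise of CRF1 was not particular to fab1∆. In vph1∆ against the wild-type it was also called higher, at 0.69 with all 16 libraries (adjusted p = 0.019). Without wild-type replicate 3 the vph1∆ value was 0.49 (adjusted p = 0.000884).

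The motif pair was also counted outside the 48 genes. Of 235 other genes with both PAC and RRPE, 25.1% were called lower in fab1∆ than in the wild-type and 53.2% lower than in atg18∆, without wild-type replicate 3, and of 4360 other genes with neither, 8.9% and 14.7%. Of other genes with RRPE alone, 15.9% and 29.7% were called lower, and of those with PAC alone 11.9% and 19.6%. The lists above were not taken out of these other genes, so motif and pathway were not told apart. Among the 48, those with both elements were called in 13 of 32 cases against the wild-type (median log2 fold change -0.229). Those without both were called in 5 of 16 (median -0.249). Against atg18∆ the calls were 28 of 32 (median -0.299) and 12 of 16 (median -0.337). In both comparisons the members with both elements had the larger share of calls and the smaller median fall. SSF1, a large-subunit factor, is uncertain in its level, because its coding sequence is 92.1% identical to that of its paralogue SSF2 and the counting could split reads between them. It was at 31.4 to 35.8 TPM in fab1∆ and 34.7 to 45.6 in atg18∆ (-0.29, adjusted p = 0.0187), beside 19.3 to 19.9 and 18.3 to 25.7 for SSF2.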

How the data were processed

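Gene expression was measured by RNA sequencing in 16 libraries. The authors quantified transcripts with Salmon (version 0.8.1 in the submitters' processing notes) on the Ensembl sacCer3 transcriptome and deposited TPM values per gene, which correct for gene length and sum to the same total in each library, so a rise of abundant genes lowers the rest. Depth is unknown and no counting interval could be given. The labels call the RNA polyA, while the protocol describes no polyA selection, so whether it was done is not settled. The study left out 1 wild-type sample for RNA quality without naming it. Its test needs counts and was not used.

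The values were tested with limma 3.58.1 in R 4.3.3 on log2(TPM + 1), with a variance trend, 1 mean per strain, a mean TPM of at least 1 (6404 genes), Benjamini-Hochberg adjustment over all genes and a threshold of 0.05. Fold changes are on the log2(TPM + 1) scale, which understates changes of low genes. The p-values measure the spread between these cultures. The model was tested on simulated data. All 48 genes matched RefSeq by systematic name (assembly R64), no member overlapped another gene there, and the upstream sequences are those of that assembly. Ribosomal protein genes were picked by symbol (RPL, RPS, RPP). Alternatives were the pseudocount, filters, scalings, other fits, a replicate block, a length trend (loess, span 0.5) and leaving out each library; 2 that join the block or the length trend with leaving out wild-type replicate 3 were chosen after seeing the data.

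The 48 genes, the lists and the naming rule were chosen with earlier results of these data known. Named were the snoRNP core proteins and NSR1, called members per fit (the 4 highest and 4 lowest beyond 8, or the 2 highest and 2 lowest where there were none), the most and least abundant members, SSF1 and at most 3 genes per list; NOP7 and ERB1 were named with YTM1 as 1 complex.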

Additional observations from a re-analysis of the deposited data

Results flagged for a closer look

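A sample far from the others of its strain was found in 5 of 48 sets of 4 values tested, all 5 in wild-type replicate 3; chance gives about 1 in 20 sets. Its 10 most abundant genes held 31.2% of TPM (next highest wild-type library 15.0%), and 6091 genes reached 1 TPM (next lowest 6341). NSR1 was at 193 TPM (next 475), NOP1 at 301 (next 906) and NOP10 at 3700 (next 2140).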

How the results depend on the processing

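The counts of called members were 0 in the main fit of 16 libraries and rose under several alternatives. Some of these remove or down-weight wild-type replicate 3. Every call for fab1∆ was in the direction given in the report. With that library already left out, the count for fab1∆ against the wild-type rose further, from 18 to 39, 44 or 46, under the alternatives given below. The order below is fab1∆ against the wild-type, fab1∆ against atg18∆, vph1∆ against fab1∆, vph1∆ against the wild-type and vph1∆ against atg18∆. Median scaling gave 37, 42, 33, 1 and 1; array weights 15, 46, 39, 3 and 3 (this fit stopped before its tolerance was reached); removal of the length trend 35, 47, 33, 1 and 3. Quantile normalization gave 33, 42 and 35 for the first 3, and a fit of each pair of strains alone 41 for fab1∆ against atg18∆ and 35 for vph1∆ against fab1∆. Without wild-type replicate 3, median scaling gave 44, 46, 37, 5 and 6, and removal of the length trend, chosen after seeing the data, 46, 48, 41, 4 and 9. The replicate numbers were not taken to pair the samples, since not every same-numbered pair correlated above 0.1 (16 of 24 did, median r 0.181, against 20 of 72 pairs of different numbers, median -0.0589). Without wild-type replicate 3, 16 of 21 same-numbered pairs did (median 0.239), against 17 of 63 (median -0.116). Same-numbered cultures were thus more alike in the median, and the fits without the block treat them as independent. The replicate block called 0 members with all libraries and, without wild-type replicate 3, 39, 43, 38, 1 and 5. Leaving out 1 library gave 0 to 18, 0 to 40, 0 to 31, 0 to 2 and 0 to 1 calls, the upper end in each case without wild-type replicate 3, and at most 2 otherwise. For atg18∆ against the wild-type every tested setting gave 0. The share of all genes called changed with the setting too. For genes lower in fab1∆ than in the wild-type it was 0.609% in the main fit and 20.0% with the length trend removed. Without wild-type replicate 3 it was 10.0%, and 29.9% with the length trend removed as well. No such share is given for the scalings, array weights or the replicate block. Their counts alone therefore do not set the members apart from all genes. The cause of the changes in the counts was not tested.

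Single genes changed sign mainly where wild-type values enter. For fab1∆ against the wild-type, median scaling gave NSR1 -0.14, NUG1 -0.12 and YTM1 -0.19, array weights -0.10, -0.0329 and -0.10, and removal of the length trend -0.12, -0.062 and -0.15. Quantile normalization gave NUG1 -0.10 and YTM1 -0.18. Without wild-type replicate 3 the same 3 genes were at -0.26, -0.19 and -0.25 with median scaling, -0.14, -0.0898 and -0.15 with the replicate block, and -0.25, -0.13 and -0.22 with the length trend removed. NOP1 in vph1∆ against the wild-type was at -0.0882 (median scaling), -0.18 (array weights) and -0.0373 (length trend), and without replicate 3 at -0.27, -0.16 (replicate block) and -0.25 (length trend); NOP10 there was at 0.0118 with array weights. In atg18∆ against the wild-type, NOP15 was at -0.20 (median scaling), -0.0731 (quantile), -0.0511 (length trend) and -0.0222 (median scaling without replicate 3), and GAR1 at -0.13, and without replicate 3 at -0.0612 (median scaling), -0.0048 (replicate block) and -0.0031 (length trend). NOP10 in fab1∆ against atg18∆ was at -0.0441 with median scaling with or without replicate 3, -0.0193 with array weights, and -0.40 and -0.39 with the length trend removed. In vph1∆ against fab1∆, removal of the length trend put NHP2 at 0.12 and 0.13 and NOP16 at 0.0392 and 0.0422, with and without wild-type replicate 3. Leaving out 1 library moved fab1∆ against the wild-type from -0.18 to 0.0502 in BRX1, -0.19 to 0.0309 in GAR1, -0.51 to 0.0179 in NOP58, -0.15 to 0.32 in NSR1, -0.0823 to 0.34 in NUG1, -0.30 to 0.13 in RRP9 and -0.14 to 0.26 in YTM1. It moved NOP1 from -0.18 to 0.36 and NOP16 from -0.11 to 0.0518 in vph1∆ against the wild-type, NHP2 from -0.0483 to 0.0058 and NOP10 from -0.0251 to 0.0334 in fab1∆ against atg18∆, and UTP8 from -0.0822 to 0.16 in vph1∆ against atg18∆.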
